A study of Arabidopsis thaliana with 3 samples.

Results

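Alternative splicing events that combine several changes at once were followed in leaf RNA of the plant Arabidopsis thaliana, accession Col-0, the reference strain. A SKAD event joins 2 exons that are not neighbours and moves both the donor (the end of the left exon) and the acceptor (the start of the right exon). A CPLX event lies between neighbouring exons and nearly always adds an exon inside the intron together with a shift of the donor, the acceptor or both. The members were all entries with either code in nuclear genes: 139 SKAD events in 106 genes and 109 CPLX events in 71 genes, 248 of 62,909 listed events, with 1 gene, AT1G25097, in both classes. The labels leave the class codes undefined, and their meaning was taken from the listed coordinates.

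RNA came from pooled first true leaves, grown at 20 ºC with 16 h of light and 8 h of dark, and was sequenced in 3 libraries that form a single group with no treatment or mutant to compare with. Nothing in the labels says that the pools came from separate plantings, so the spread over libraries may be technical. The libraries held 34,587,113, 33,141,594 and 62,624,801 reads over 46,303 junctions, so replicate 3 was sequenced most deeply. All 5 mesophyll markers were listed (Rubisco small subunit gene RBCS1A at a median of 443,351 reads per junction and library), as were both guard cell markers (MYB60, FAMA) and both vascular markers (XCP1, SUC2). Of the trichome markers GL2 was listed at 17.7 reads and GL1 was not, and of the epidermis markers ATML1 was and PDF1 was not. Neither root marker (PHT1;1, TIP2;3) was listed; of the floral markers AP3 was not, and AG was at 15.7 reads. Since GL1 and PDF1 are leaf markers, a gene that is not listed does not show that a tissue is absent.

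Most plant introns begin with GT and end with AG, the letters that the spliceosome reads at the donor and the acceptor. Some exons are so short that both of their splice sites almost touch; such microexons are known from plant genes for vacuolar invertases and transcription factors. Where a new exon brings a stop codon upstream of a later exon junction, the RNA is a potential target of nonsense-mediated decay, the pathway that removes such RNAs. The members were therefore described by the letters at their junctions, by what they add and remove, and by the effect on the reading frame.

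The level of an event is the percentage of its reads that show the alternative form. For SKAD the reads counted against it are gene-wide and for CPLX they are those of the junction, so the classes are not set against each other. Levels are given for each library or as the mean ± SD of all 3 (n = 3). The leaf was sequenced whole, so few cells with a form and little of it in each cell cannot be told apart. Every listed event has at least 1 alternative read in each library, and events below that limit cannot be told from absent ones.

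The deposited SKAD coordinates were compared with the genome of the RefSeq assembly TAIR10.1. In 27 of 139 events (19.4%) the removed stretch began with GT or GC and ended with AG on the gene's strand, allowing for sliding the junction along identical letters. A further 31 events (22.3%) gave an RNA of exactly the length of an annotated transcript that holds a very short exon, with other letters in the place of that exon. In 30 other events (21.6%) splice letters were found only when the sequence was read on the opposite strand. They appear as CT at the left and AC or GC at the right end. Of the 31 short-exon events, 2 also had splice letters on the opposite strand and were kept in the short-exon group. The remaining 51 (36.7%) had splice letters on neither strand. At the listed site, without sliding, 26 SKAD events (18.7%) had GT or GC and AG and 32 (23.0%) had CT and AC or GC. All 987 SKIP events (exons skipped with no shift) whose sites could be placed had GT or GC and AG there. ALTP events, which move both sites of a junction between neighbouring exons, had these letters at 619 of 1440 sites and CT with AC or GC at 226 (15.7%), so junctions without splice letters or with them on the opposite strand were also listed outside SKAD.

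The ends of the removed stretch are shown for the most read and the third most read SKAD event, in HST and SLP1, and for opposite-strand examples in TBL30 and PIL2. Capitals mark the first and last letters of the removed stretch, 5′ to 3′ on the gene's strand.
HST left end: ctcaatccggGTatggtttcat
HST right end: agatactaccAGgcatgttctc
SLP1 left end: ccaagacaccGTatgtacatta
SLP1 right end: atgaaaatacAGgtactagttc
TBL30 left end: atatggtggaCTagacattcca
TBL30 right end: agatgggcatACctcattttac
PIL2 left end: ccacaagttcCTgcaagaacaa
PIL2 right end: ctttgtcctaACctgtataaat

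The removed stretches lie at chr3:3782266-3782673 (HST, minus strand), chr1:2153324-2153491 (SLP1, plus), chr2:16778372-16778912 (TBL30, plus) and chr3:22989485-22989937 (PIL2, minus).

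For the short exons, the annotated and the deposited form of the same RNA are set side by side, with the short exon, or the letters that stand in its place, in capitals. These were chosen because they carry the most reads or come from related genes.
AT5G14030 annotated: tttggacgtgGCCAAGaggttgctgg
AT5G14030 deposited: tttggacgtgGTAAAGaggttgctgg
PFD1 annotated: aagtcaatagGAAGAACgtttgttcta
PFD1 deposited: aagtcaatagGCAACAGgtttgttcta
AT1G02305 annotated: aggatcttagATCAGggtcactgtg
AT1G02305 deposited: aggatcttagGTCAGggtcactgtg
NF-YB8 annotated: atatagagagATGGAGggtgacacaa
NF-YB8 deposited: atatagagagGTATAGggtgacacaa
NF-YB10 annotated: atatagagagATGGAGggtgacacta
NF-YB10 deposited: atatagagagGTATAGggtgacacta
ATBETAFRUCT4 annotated: tggatgaacgATCCTAACGgtccattgtt
ATBETAFRUCT4 deposited: tggatgaacgGTACTACAGgtccattgtt
AT1G62660 annotated: tggatgaacgATCCTAATGgtccattgtt
AT1G62660 deposited: tggatgaacgGTACGAACGgtccattgtt
ATM1 annotated: tcaaacctTTTTACTAGAAAAGtctagagt
ATM1 deposited: tcaaacctGTTCATTTTAACAGtctagagt
VIIIA annotated: tcaaacatTTTTACTAGAAAAGtcaagagt
VIIIA deposited: tcaaacatGTAAACTTTCATAGtcaagagt

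The median SKAD level was 0.0932% ± 0.00763 of gene-wide reads over all 139 events, against 0.424% ± 0.0803 for the 995 SKIP events, which carry totals of the same kind. SKAD minus SKIP was -0.287, -0.415 and -0.290 points, so the SKAD median was lower in all 3 libraries (exact sign-flip permutation test over the libraries, two-sided, p = 0.25, the smallest that 3 libraries allow). Of the SKAD events, 14 (10.1%) reached a mean of 10% or more and none reached 50%, while 129 SKIP events (13.0%) reached 10%. Medians differed between the letter groups. They were 1.33% ± 0.265 for splice letters on the gene strand, 0.967% ± 0.122 for the short exons and 1.29% ± 0.332 for the opposite strand. For no splice letters the median was 0.00558% ± 0.000849. The ranges of the first 3 groups overlap, and no event of the last group was above 0.510%. Median gene-wide totals differed too, at 2628, 2054 and 466 reads per library in the first 3 groups and 70,092 in the last. Since listing needs 1 read in each library, the lowest level that can be listed differs between the groups. The part of depth was not tested.

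**Figure D1:**
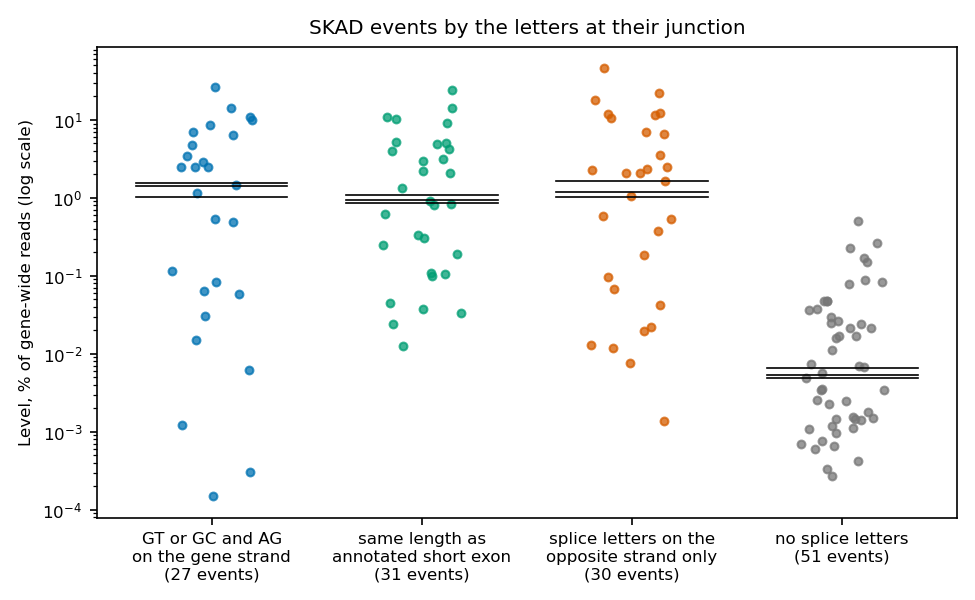
Mean level of each SKAD event over the 3 libraries in percent of gene-wide reads (log axis), by the letters at its junction; each point is 1 event and the 3 lines in each group are the medians of the 3 libraries. The first 3 groups have medians near 1%, and the 51 events without splice letters have medians near 0.00558%. Gene-wide totals differ between the groups, and with them the lowest level that can be listed.

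Among the 27 events with splice letters on the gene strand, 12 join exactly the ends of an intron that is annotated in another transcript of the gene. The most read was in HST (AT3G11945), homogentisate prenyltransferase of plastoquinone synthesis, where exons 1 and 3 were joined with 43 nt added on the left, 12 nt added on the right and a 76-nt exon left out. Its level was 7.53, 7.21 and 6.46% in replicates 1 to 3, or 7.07% ± 0.550. Set against the reads of the junctions it spans instead of the whole gene, the same event stood at 36.8% ± 1.03. The net change of -21 nt keeps the stop codon and shortens the protein.

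SLP1 (AT1G07010), a phosphatase of the chloroplast, had the same arrangement between exons 2 and 4, with 15 and 12 nt added for a 33-nt exon left out. The level was 6.70, 6.12 and 6.17% of gene-wide reads and 39.2% ± 1.18 of junction reads, with 6 nt less in the RNA. AT2G15910, a CSL zinc finger protein, reached the highest gene-wide level of this group, at 26.5, 26.5 and 26.0%. There the listed entry makes the left exon longer by 10 nt and the right exon by 649 nt. No annotated transcript had the same length there, and the counts do not show whether the 649 nt are kept in full. If they are, the new frame meets a stop upstream of a later junction. A second form of AT2G15910 that ends 5 nt nearer the exon had 19 reads and a level of 0.529% ± 0.384. The 3 libraries lay close together in HST, SLP1 and the main form of AT2G15910.

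The class VIII myosin gene ATM1 (AT3G19960) joined exons 21 and 23 at 3.50, 3.54 and 3.30%, with 59 and 56 nt added and a 34-nt exon left out, an RNA longer by 81 nt in frame. PGDH (AT1G17745), phosphoglycerate dehydrogenase of serine synthesis, had 9.59, 8.59 and 11.8% of gene-wide reads and 63.4% of junction reads. AT1G53770, an O-fucosyltransferase family gene, was at 8.61% ± 1.91 gene-wide and 84.5% of junction reads. AT1G02350 (protoporphyrinogen oxidase-like) reached 14.2% ± 1.48, and it is one of 8 SKAD events for which the plain skip of the same exons is also listed, there at 0.857%. Of these 8, the SKAD entry was the higher in 5 and the skip in 3. The skip was higher in VAB2 (4.25% against 0.925%), AT5G18230 (5.18% against 0.0126%) and GPRI1, the transcription factor also known as GLK1, which activates photosynthesis genes (15.5% against 0.0630% ± 0.0219). In VAB2 the exon between the pair is 92 nt long in the transcript used. In GPRI1 the entries are not separate forms: the SKAD junction, with 6 nt moved from one side to the other inside an 8-nt repeat, slides onto the plain skip of the 48-nt exon and gives the same RNA. In 14 of the 24 events of this group that could be placed on a transcript, the stop codon stayed the same and the protein changed in length; in 8 a new stop lay more than 50 nt upstream of the last junction.

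**Figure D2:**
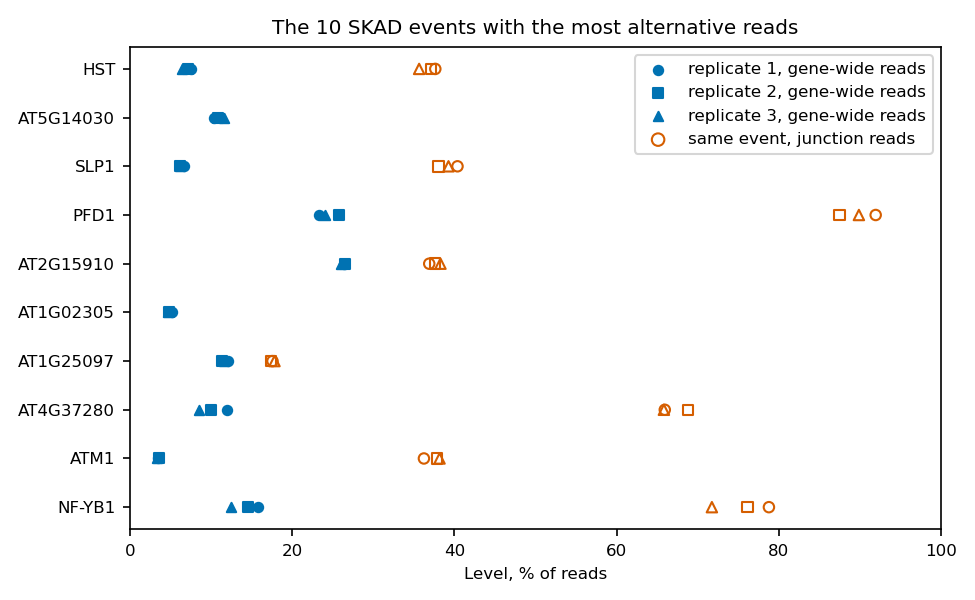
Levels of the 10 SKAD events with the most alternative reads, in percent; filled symbols are shares of gene-wide reads in replicates 1, 2 and 3, and open symbols are shares of the reads of the spanned junctions, where all of these are listed. PFD1 moves from 24.4% to 89.8%, and AT1G25097 moves least, from 11.7% to 17.6%. PFD1 is in the short-exon group, where counts do not show which letters the reads carry.

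The short-exon group is defined by length: the nucleotides gained at the left and right exon sum to the length of the annotated exon between them in all 28 of its 31 events that add letters on both sides. The other 3 lengthen one exon, shorten the other and match in length as well. The events fall on 24 exons in 24 genes, and these exons are 5 to 19 nt long with a median of 10 nt. The added letters begin at the start of the left intron and stop at the end of the right intron, so they often read as GT at the left and AG at the right, as in NF-YB8 and ATM1 above. They differ from the annotated exon at 1 to 17 positions, with 162 differing letters beside 323 exon letters in all. A SKIP event between the same pair of exons is listed for 6 of the 31. In VAB2 and AT2G23985 the exon between this pair, in the transcript used, is 92 and 25 nt long. It holds the short exon of 16 and 13 nt of another transcript, so the skip there is not one of the short exon alone. The counts do not show whether the reads of these events carry the listed letters or those of the annotated short exon, so the levels are those of the listed entries.

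**Figure D3:**
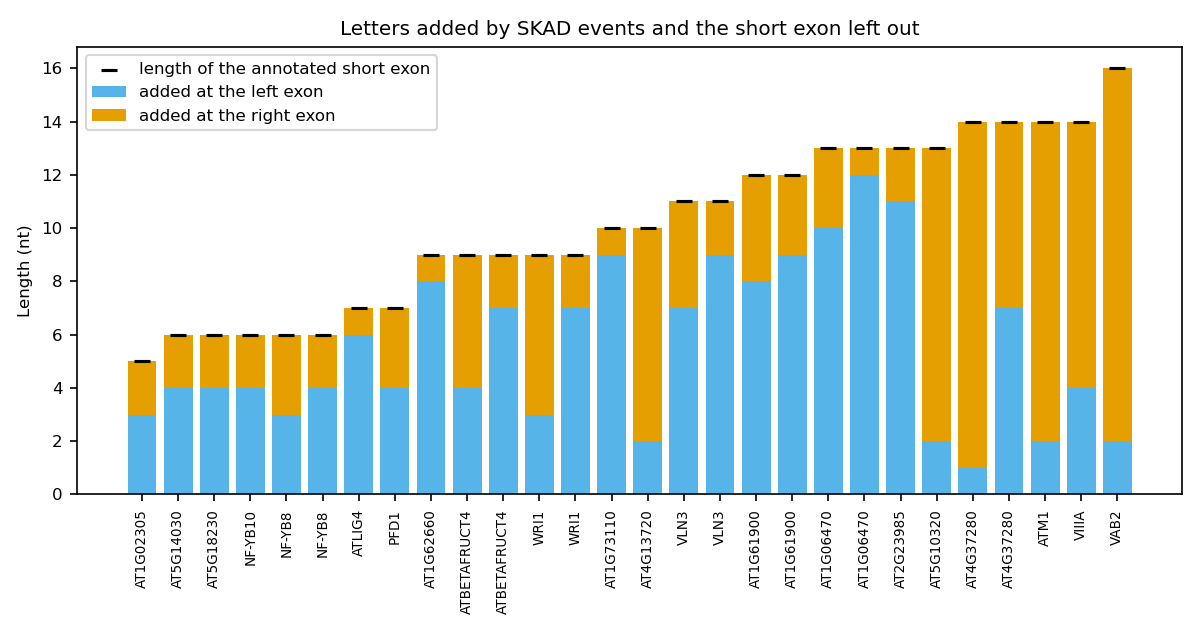
Nucleotides added at the left exon and at the right exon (stacked bars, nt) in the 28 short-exon SKAD events that lengthen both exons, with the length of the annotated exon between them (black marks). The bars reach the mark in each of the 28 events, from 5 nt in AT1G02305 to 16 nt in VAB2.

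PFD1 (AT2G07340) encodes subunit 1 of prefoldin, a chaperone that receives newly made tubulin and actin. Its event joins exons 3 and 5 with 4 and 3 nt added for the 7-nt exon at chr2:3046227-3046233, and the level was 23.3, 25.7 and 24.1% of gene-wide reads. Against the 2 junctions of the short exon it was 89.8% ± 2.23, while the plain skip of this exon stood at 0.490% of gene-wide reads. The protein length is unchanged in the computed translation. Whether these reads lack the 7-nt exon cannot be told from the counts.

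AT5G14030, a beta subunit of the translocon-associated complex at the endoplasmic reticulum, had 10.3, 10.8 and 11.6% at its 6-nt exon (chr5:4528036-4528041). AT1G02305, a cysteine proteinase of the cathepsin kind, had 5.23, 4.87 and 4.65% at the 5-nt exon chr1:456757-456761, and here the deposited form differs from the annotated one at a single letter. AT4G37280, an MRG family chromatin reader, had 11.9, 9.98 and 8.51% at a 14-nt exon and 66.9% ± 1.68 of junction reads. Its levels differed between libraries by more than counting error, as given below with the other calls.

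Several short exons recur in related genes. NF-YB1, NF-YB8 and NF-YB10 encode B subunits of the CCAAT-box factor NF-Y, and each has a 6-nt exon at the same place; the exons of NF-YB8 and NF-YB10 have the same letters, and that of NF-YB1 differs from them at 1 position. The levels were 14.3% ± 1.68 in NF-YB1, 9.12% ± 2.21 and 3.16% ± 0.523 for 2 ways of adding 6 nt in NF-YB8, and 0.331% ± 0.194 in NF-YB10. The class VIII myosins ATM1 and VIIIA share a 14-nt exon letter for letter, with levels of 0.836% ± 0.185 and 0.627% ± 0.223. The vacuolar invertases ATBETAFRUCT4 and AT1G62660, which split sucrose, have 9-nt exons that differ at 1 position, and their events were rare: 0.0380% ± 0.00705 and 0.0239% ± 0.0125 for 2 forms in ATBETAFRUCT4, and 0.105% ± 0.0298 in AT1G62660. WRI1, an AP2-type activator of oil synthesis in seeds, had 2 forms at a 9-nt exon, at 5.06% ± 1.17 and 2.23% ± 0.396.

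Other genes of this group are ATLIG4 (DNA ligase IV, 7 nt, 0.246%), VLN3 (the actin-bundling villin 3, 11 nt, 2 forms at 0.0455 and 0.0334%), AT1G61900 (12 nt, 2 forms at 4.26 and 2.10%) and VAB2 (a subunit of the vacuolar ATPase, 16 nt, 0.925%). Short exons with 2 forms each were also found in AT1G06470, a nucleotide sugar transporter family gene (2.95 and 0.810%), and in AT4G37280 (10.1 and 0.110%). In the whole annotation of the genes in the table, 96 internal exons are at most 15 nt long, and 22 of them (22.9%) are crossed by such a SKAD event. Of 102 exons of 16 to 20 nt the number was 2, and of 86,318 longer exons it was 0. The definition itself needs added letters of the same length. SKIP events, which need no such match, removed 10 of the 96 shortest exons (10.4%), 13 of the 102 (12.8%) and 814 of the longer ones (0.943%).

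In the opposite-strand group, 17 of the 30 events overlap a gene annotated on the other strand, against 8 of the 109 events in the other groups, and 12 of the 30 join exactly the ends of an annotated intron of that gene. The sources used here do not say whether the libraries keep strand, so reads of a gene and of its antisense neighbour cannot be told apart. PIL2, a relative of the phytochrome-interacting bHLH factors, stood at 21.7, 14.3 and 18.6%, and the removed stretch is an annotated intron of AT3G09745. TBL30 (AT2G40160), of a family of cell wall acetyltransferases, had 3 events with 112 reads in all. The most read was at 10.1, 9.09 and 16.6% and is an intron of AT2G40165. The next had 12, 10 and 15 reads, and the last stood at 1.05% ± 0.225.

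AT5G07150, a leucine-rich repeat kinase family gene opposite AT5G07152, had 9.79, 11.9 and 10.3% for its main form and 2.25% ± 0.656 for a second form. AT1G25097 had 12.2, 11.3 and 11.6% for a stretch that matches an intron of AT1G25098. The highest SKAD level of all, 45.8% ± 3.71, was in AT3G05905, but on gene-wide totals of 14, 26 and 47 reads. OSH1, a GILT reductase family gene opposite AT5G00780, had 22.5% ± 2.50, and ENDO2, a nuclease opposite AT1G08973, had 12.3% ± 2.50. Both rest on 32 to 133 gene-wide reads per library. In the gene's own frame, 17 of the 30 opposite-strand events would bring a stop more than 50 nt upstream of the last junction.

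The 51 events without splice letters lie in 40 genes and are mainly shortenings: in 38 of them both exons lost sequence. The median gene-wide total was 70,092 reads per library, against 2628, 2054 and 466 in the gene-strand, short-exon and opposite-strand groups, and the median number of alternative reads over all libraries was 12. In 29 of the 51 at least 4 identical letters stand at both ends of the removed stretch, against 3 of 27, 1 of 31 and 6 of 30 in the other groups and 234 of 987 SKIP events (23.7%). The repeated letters are shown for the event with the longest repeat in each of 3 genes with 3 or more SKAD events, with capitals marking the stretch found at both ends; these events had 94 reads in LHCB5, 42 in CA1 (exons 1 and 5) and 9 in FBA2.
LHCB5 left end: ctgttgctCTCTTCTCtaagaaaa
LHCB5 right end: gcaaggagCTCTTCTCaaagtcaa
CA1 left end: aacgcttaTCCGTAACgagccagt
CA1 right end: cttcgtggTCCGTAACatagccaa
FBA2 left end: gttggatcCAACAatgagtca
FBA2 right end: ggtggaggCAACActcaactt

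CA1 (AT3G01500), the chloroplast carbonic anhydrase that hydrates carbon dioxide, had 10 SKAD events with 230 reads in all, between 0.000301 and 0.00347% of gene-wide reads. Of the 10, 9 have no splice letters and 8 join exons 1 and 3. Among the 7 exon 1 to 3 events without splice letters, 1 has a repeat of at least 4 nt. LHCB5 (AT4G10340), a minor light-harvesting antenna protein of photosystem II, had 4 events with 165 reads. Its most read event joined exons 1 and 6 across an 8-nt repeat, with 13, 31 and 50 alternative reads and a level of 0.00339% ± 0.00123. FBA2 (AT4G38970), an aldolase of the Calvin cycle, had 3 events, of which the most read has GT and AG and stood at 0.00628% ± 0.000922.

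Of the 46 photosynthesis genes in the table, 7 (15.2%) had a SKAD event and none had a CPLX event, beside 106 (0.733%) and 71 (0.491%) of all 14,457 nuclear genes listed. The 7 are CA1, LHCB5, PSBR (a photosystem II subunit, 0.00487%), PSAE-1 (a photosystem I subunit, 0.0162%) and the photosystem I antenna genes LHCA1 (0.000268%), LHCA2 (0.00148%) and LHCA4 (0.000416%). All of these events except those with GT and AG in CA1 (1) and LHCB5 (2) lacked splice letters. Depth moved with this count: 22 of the 51 events without splice letters, and 5 of the other 88, are in genes with more than 100,000 reads per library, and the part of depth was not tested. Of 18 SR protein genes, which guide splice-site choice, SR34b had a SKAD event (0.510% ± 0.204, in the 3′ untranslated region, without splice letters). None of the 15 clock genes and none of the 8 immune genes had a SKAD or CPLX event.

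**Figure D4:**
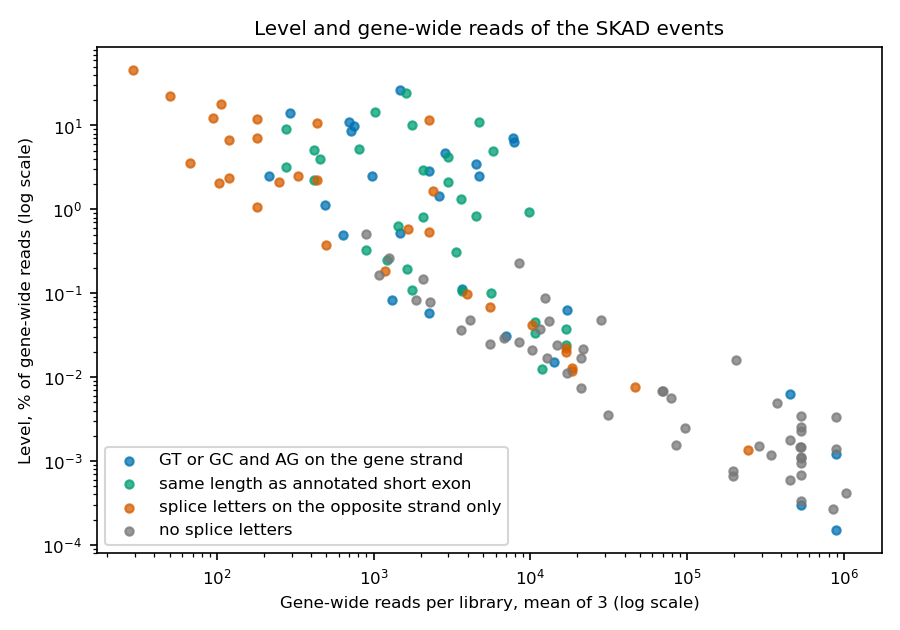
Level of each SKAD event (percent of gene-wide reads, log axis) against the mean gene-wide reads per library (log axis), by the letters at the junction. The empty lower left corner follows from the listing minimum of 1 read in each library; of the 51 events without splice letters, 22 have totals above 100,000 reads.

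CPLX events gave a different picture. In 106 of the 109 an exon inside the intron was combined with at least 1 shift, most often a longer right exon (35 events), a longer left exon (28) or a shorter right exon (14). A full chain of left exon, extra exon and right exon could be placed on a transcript for 92 events, and 87 of these (94.6%) have GT or GC and AG at both junctions. The other 5, 2 in AT1G25097 and 1 each in AT1G24822, AT5G17523 and AT5G06280, have not. Their junctions have CT with AC or GC, the letters of the opposite strand, except the downstream junction of 1 AT1G25097 event, with CT and AG. The extra exon is an annotated exon in 54 of the 105 events with a single placed extra exon, and both junctions are annotated introns in 42 of 92. Extra exons were 4 to 312 nt long with a median of 60 nt, inside introns with a median of 481 nt.

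The median CPLX level was 2.30% ± 0.109 of junction reads. It was 6.62% ± 0.976 for the 42 events with both junctions annotated and 1.16% ± 0.133 for the 50 with 1 or none. The median junction totals of these sets were 116 and 563 reads per library, so the lowest level that can be listed differs between them. The 1500 ALTP events, which also have junction totals, had a median of 1.21% ± 0.103. The CPLX median was higher by 1.01, 0.964 and 1.28 points in the 3 libraries (exact sign-flip permutation test, two-sided, p = 0.25, the smallest possible). This order reversed with a stricter read minimum: with 10 or more alternative reads required in every library, the CPLX median was 6.53% and the ALTP median 31.1%. At 10% or more there were 24 CPLX events (22.0%) and 404 ALTP events (26.9%), and 2 CPLX events reached 50%.

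BGLU33 (AT2G32860), a beta-glucosidase of the family that releases aglycones from glucosides, had the most CPLX reads, 853 in all. Between exons 9 and 10 the right exon lost 35 nt and a 29-nt exon was added, so that 6 nt fewer remained and the frame was kept. The level was 37.6, 41.7 and 43.5%, while retention of the same intron stood at 0.383%. The same exchange of a piece of exon for an extra exon of similar length occurred in AT1G66910, a protein kinase gene (39 nt lost, 30 nt gained), at 19.1, 21.7 and 22.9%. In ASG3 (AT2G44980), an SNF2-type helicase gene, 11 nt were lost and an 8-nt exon gained, at 76.2, 43.8 and 90.0% but on 16, 7 and 18 alternative reads. In these events of BGLU33, AT1G66910 and ASG3 the extra exon is an annotated exon, and both of its junctions are annotated introns. These extra exons are shown because they change the protein while the frame is kept. Capitals mark the exon.
BGLU33 extra exon: ATAGTCAAAACAATTCACCACATCTCAAG
AT1G66910 extra exon: ATACAAGCCTCTCTACTGGAGCAAAAGCAG
ASG3 extra exon: ctatttgcagGAGACGAGgtacttccat

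The BGLU33 exon lies at chr2:13942579-13942607 on the plus strand, the AT1G66910 exon at chr1:24962874-24962903 and the ASG3 window at chr2:18556302-18556329, both on the minus strand. Further events that kept the stop and changed the protein length were ABCC13, an ABC transporter of the multidrug resistance type (24.0, 17.5 and 17.4%, 75 nt longer), and AT4G38120, an ARM repeat gene (19.2% ± 1.59, 9 nt longer). ABCC13 was highest in replicate 1.

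**Figure D5:**
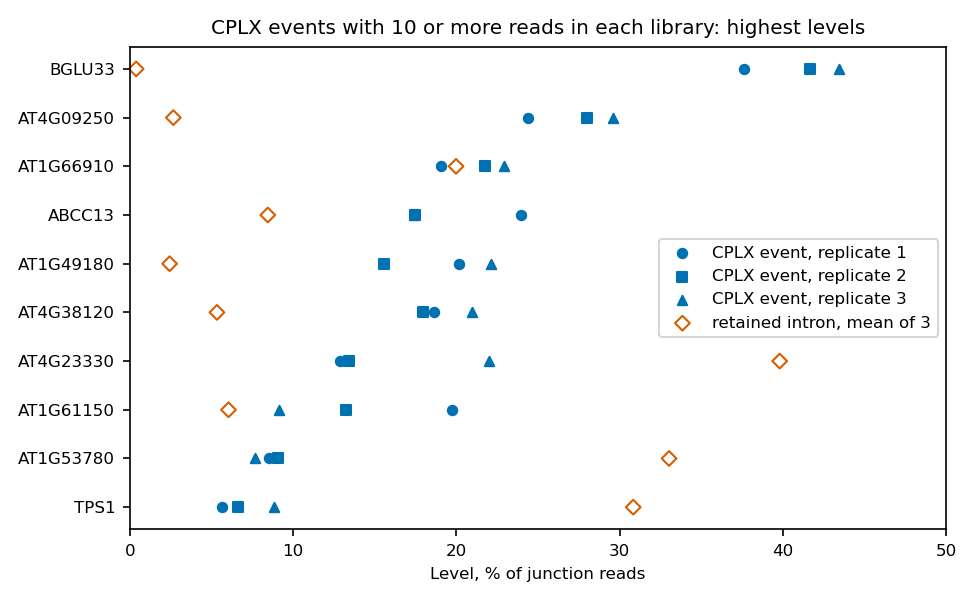
The 10 highest CPLX events among those with 10 or more alternative reads in every library, as percent of junction reads in replicates 1, 2 and 3 (filled symbols), with the mean level of the retained intron at the same junction (open diamonds). BGLU33 and AT4G09250 lie far above their retained introns, and AT4G23330, AT1G53780 and TPS1 lie below them.

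The computed translation takes each added stretch as kept in full, which the counts do not show. In EMB2771 a left stretch of 204 nt holds the extra exon of another entry. In this translation, 54 of the 77 events inside coding sequence (70.1%) met a stop more than 50 nt upstream of the last junction. The CPLX events of AT1G25097 and AT1G24822, which lack GT or GC and AG, are counted among these. In 16 events (20.8%) the stop stayed and the length changed. PAA1 (AT4G33520), a copper-transporting P-type ATPase of the chloroplast envelope, met such an upstream stop. It had an 82-nt exon and a right exon longer by 516 nt at 6.05, 6.46 and 8.31%. AT5G53850, a dehydratase and phosphatase of methionine salvage, had 4.12, 4.42 and 5.58%, below the extra exon listed alone at 7.03%. AT4G23330 had 12.9, 13.4 and 22.0%, AT1G49180 (a protein kinase gene) 20.1, 15.6 and 22.1% and AT1G53780 (a proteasome ATPase) 8.55, 9.06 and 7.65%; each met such a stop. AT4G09250, a SPRY domain gene, had 24.4, 28.0 and 29.6% for its most read entry. Its other entries at the same junction stood at 3.93% ± 1.71 and 1.82% ± 0.373. The entry at 3.93% shares the splice from 5878535 to 5878607 with the most read one, so they need not be separate forms. TPS1 (AT1G78580), trehalose-6-phosphate synthase, carried its event in the 5′ untranslated region, at 5.65, 6.64 and 8.85%. The entry lists a 41-nt exon and a left exon longer by 2870 nt, and the computed protein is unchanged. Whether the 2870 nt are kept in full cannot be told from the counts.

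SR34 (AT1G02840), an SR protein, had 2.26, 3.11 and 2.96% between exons 10 and 11. The entry holds an annotated 80-nt exon and a right exon longer by 353 nt, with a new stop in the computed translation. The same intron was retained at 37.1%. It was the only one of the 18 listed SR genes with a CPLX event (5.56%, beside 0.491% of all genes). Apart from that list, AT1G10320, a CCCH zinc finger gene, had 3 entries between 2.85 and 6.10%. AT1G60200, a PWI-domain splicing factor, had 3 entries between 0.340 and 0.720%, and AT5G09880, a CC1-like splicing factor, stood at 2.93% ± 0.338. All of these placed a new stop in the frame of the computed translation.

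Other genes with several CPLX events were AT5G47455 with 5 entries (0.924 to 5.97%) and EMB2771, the APC1 subunit of the anaphase-promoting complex, with 4 (3.62 to 10.1%). AT1G78070 had 3 (0.178 to 1.58%), as did GLT1, NADH-dependent glutamate synthase (0.473 to 0.853%). Some entries of the same gene share a splice, as in AT5G47455, EMB2771, AT1G78070 and AT1G10320, and need not be separate forms. LpxC2 and LpxC3, deacetylase genes, had 3 each, led by 2.31% ± 0.242 and 0.966% ± 0.0764. LpxC2 and LpxC3, on the plus strand, are near-identical copies of each other, and so are AT1G25097 and AT1G24822, on the minus strand. How reads were divided between such copies is not stated, so their values are uncertain. The same holds for PGLP1 and AT5G36790, whose SKAD events have equal counts of 1, 5 and 9 reads. AT1G61150 (LisH and RanBPM domains) holds CPLX events without an extra exon, of which there are 3 in all. The most read combines 2 acceptor pieces and stood at 19.7, 13.2 and 9.14%.

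The single steps of a CPLX event were not always listed on their own. For 59 of the 109 no part was an event by itself, for 42 events 1 part was and for 8 events 2 parts were. The extra exon alone was listed for 15 events, of which the CPLX form was the more frequent in 5, and a shift alone for 41, of which it was the more frequent in 8. These forms share 1 junction total. The intron was also listed as retained for 105 of the events, and retention was above the CPLX level in 93. Over the 69 such junctions the median retention was 26.6%, beside 4.19% over all 43,194 retained introns.

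Levels were tested for equality over the 3 libraries on all 62,849 nuclear events (chi-square test of homogeneity on reads, Benjamini-Hochberg adjusted over all events, threshold 0.05). It sets libraries against counting error only. It called 5 of 139 SKAD events (3.6%) and 4 of 109 CPLX events (3.67%), beside 10.1% of all events. Members have few reads; when 10 or more were required in every library, it called 2 of 38 SKAD, 2 of 22 CPLX and 3586 of 18,254 events in all (5.26, 9.09 and 19.6%). At an unadjusted p of 0.05 or less there were 18 SKAD events (12.9%), 14 CPLX events (12.8%) and 22.1% of all events.

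The called SKAD event with the lowest adjusted p of this homogeneity test (0.0125) was in AT5G02650, at 14.5, 9.69 and 8.40%. The others were XIF, a class XI myosin (13.1, 1.20 and 5.71%, adjusted p 0.0462), AT4G37280 (0.0380), AT4G00020, a gene of homologous recombination (1.03, 3.64 and 2.88%, 0.0423), and the minor form of AT2G15910 (0.818, 0.675 and 0.0928%, 0.0385). The called CPLX events were AT1G61150 (0.00167), AT1G25097 (5.68, 4.25 and 2.85%, 0.00623), KEA1, a potassium antiporter of the chloroplast (1.21, 0.132 and 0.180%, 0.0191), and AT4G01915 (8, 1 and 1 alternative reads, 0.0499). Replicate 1 was the highest library in all of them except AT4G00020, where it was the lowest. Without replicate 1 none of the 9 was called in either class (0 of 139 and 0 of 109, beside 3.25% of all events).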

How the data were processed

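RNA from pooled first true leaves of Col-0 was made into 3 Illumina TruSeq libraries after DNase treatment, per the labels' protocols. Reads were handled with CASAVA 1.8.2 and GSNAP on the build TAIR10, per the submitters' processing notes; the sources used here do not state the tool that classified events, the counting rule or strandedness. The deposited values are raw read counts by the authors, per event and library, for the alternative form and for other reads, with no normalization.

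From these counts the level was computed in each library as alternative reads in percent of alternative and other reads. The junction-based SKAD level divides by the alternative reads plus the mean total of the spanned junctions, where all are listed (100 of 139 events). Exons were taken from the RefSeq annotation of TAIR10.1, for each gene from the transcript that best abuts the listed sites; 97.4% of 17,211 shifted sites abut its exons. Letters were read at every position to which identical letters let a junction slide. Stops were compared by translating the chosen transcript with and without the event, with each added stretch taken as kept in full. Events were tested for equal levels with a chi-square test over libraries (scipy 1.17.1, numpy 2.4.6, pandas 2.3.3, Python 3.11.15) with Benjamini-Hochberg adjustment, checked on simulated counts; figures used matplotlib 3.10.9. Class medians were compared within libraries with an exact sign-flip test. No result compares conditions, since there is a single group.

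The median alternative reads per SKAD event were 5, 5 and 9 in replicates 1, 2 and 3, and 5, 3 and 8 per CPLX event, so single events are imprecise; 38 SKAD and 22 CPLX events have 10 or more in each library. Reads carry no molecular identifiers, so tests cover counting error only. Members and gene lists were chosen with earlier results of these data known. Named are, within each class, the 10 events with the most alternative reads, the 10 with the highest level among those with 10 or more reads in each library, genes with 3 or more events, called events and list genes; further genes (relatives sharing a short exon, WRI1, VLN3, ATLIG4, VAB2, AT1G61900, AT1G06470, OSH1, ENDO2, AT3G05905, AT1G53770, GPRI1, ASG3, AT5G09880, PGLP1, PGDH, AT5G18230, AT1G24822, AT5G17523, AT5G06280) were chosen after their values were seen. Alternatives were other read minimums, summed reads, other denominators, a likelihood-ratio test and leaving out each library.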

Additional observations from a re-analysis of the deposited data

How the results depend on the processing

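The SKAD median depended on which events entered. It was 3.00% with a minimum of 5 and 4.89% with a minimum of 10 alternative reads per library, 0.0713% with at least 100 reads in the total, 0.144% with 1 event per gene, 0.919% with junction reads as denominator and, in an alternative added after the data were seen, 1.33% for the events with splice letters on the gene strand. The CPLX median was 6.46 and 6.53% with those read minimums, 1.22% with at least 100 reads in the total, 3.16% with 1 event per gene and 2.48% without the near-identical copies, also added later. CPLX events at 10% or more fell to 13 and 8 with a minimum of 5 and 10 alternative reads per library. The CPLX minus ALTP difference reversed to -10.3 and -24.6 points with the same minimums, while SKAD minus SKIP stayed below 0 under all alternatives run. The causes were not tested. Leaving out each replicate in turn gave SKAD medians of 0.0888 to 0.0956%, CPLX medians of 2.25 to 2.36%, 13 to 15 SKAD and 22 to 24 CPLX events at 10% or more, and differences of -0.353 to -0.289 and 0.987 to 1.14 points. The calls were 0 to 4 for SKAD (0 without replicate 1, 3 without replicate 2) and 0 to 3 for CPLX (0 without replicate 1 and 0 without replicate 3), beside 3.25, 5.88 and 5.97% of all events without replicates 1, 2 and 3. The likelihood-ratio test called 5 of 139 and 4 of 109 (3.6 and 3.67%, beside 10.2% of all events). AT4G01915, called by the chi-square test, was not among them. With a smallest expected count of at least 5 required, 7 of 64 and 3 of 40 were called (10.9 and 7.5%, beside 21.7% of all events). KEA1, AT4G01915 and the minor form of AT2G15910 were not among these calls. No paired analysis was possible because the study has 1 group. Low counts limit single events: 101 SKAD and 87 CPLX events have under 10 alternative reads in at least 1 library.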
